A study of Mus musculus with 6 samples.

Results

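The transcripts described here are those of 32 genes of pyruvate oxidation and the citrate cycle. They comprise enzymes of the cycle, the pyruvate carrier and pyruvate carboxylase, the pyruvate dehydrogenase complex with its kinases and phosphatases, and enzymes of the malate-aspartate shuttle. They were chosen by symbol from pathway membership, and each matched 1 of the 54385 rows of the deposited table. Polyadenylated RNA came from interscapular brown adipose tissue of C57BL/6N mice exposed to 5 °C for 24 hours after 20 weeks on chow. The 3 control mice carried floxed Adcy3 alleles without Cre (Adcy3-FL/FL/Adipoq-wt/wt), and the 3 knockout mice carried the same floxed alleles with Adipoq-Cre (Adcy3-FL/FL/Adipoq-wt/cre). Adipoq-Cre is active in adipocytes, so other cells of the depot keep the gene, and all 6 mice were cold-exposed, with no warm group analysed here. The design text of the series names the inguinal depot, an age of 20 weeks and more replicates, whereas the sample labels, followed here, give the interscapular depot and 3 a group. Adcy3 encodes adenylyl cyclase 3, which makes cyclic AMP.

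Pyruvate enters mitochondria through a carrier made of the products of Mpc1 and Mpc2 and is converted to acetyl-CoA by pyruvate dehydrogenase, which kinases switch off and phosphatases switch on. The citrate cycle oxidises acetyl-CoA and passes electrons to the respiratory chain. Brown adipocytes run this route at high rates in the cold, where uncoupled respiration releases the energy as heat. Pyruvate carboxylase refills the cycle with oxaloacetate, and the malate-aspartate shuttle carries reducing equivalents from cytosol to mitochondria.

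Libraries held between 13956786 and 17538044 estimated counts. Adcy3 stood at 135, 169 and 158 counts per 1000000 (CPM, scaled by TMM) in control libraries 1 to 3, and in the knockout libraries, in the same order, at 21.9, 30.3 and 24.0 CPM. The 11 brown adipocyte markers summed to between 1.41% and 1.52% of counts in controls and between 1.56% and 1.77% in knockouts. The 20 skeletal muscle markers summed to 2.30%, 2.05% and 1.74% in controls and to 0.981%, 0.0757% and 0.0105% in knockouts, and none was at 0 in any library. Fibroblast markers summed to between 0.0476% and 0.0725% in controls and between 0.0253% and 0.0413% in knockouts, and the white adipocyte markers to between 0.00983% and 0.0139% and between 0.006% and 0.00627%. Sums for endothelium and macrophages overlapped between the groups. In bulk tissue, fewer cells of a type and less RNA per cell cannot be told apart. On the first principal component (58.3% of variance) controls lay between -43.77 and -34.82 and knockout library 1 at -20.73. Knockout libraries 2 and 3 lay at 54.02 and 80.92. On the second component (16.5% of variance) knockout library 1 stood apart from the other 5 libraries. Its deviations from the controls ran against transcript length (Spearman's rho across 14754 genes -0.49, against -0.12 to 0.12 in the other 5), so results are given with and without it. The labels number the replicates but do not name animals, so the p-values measure only how far these libraries spread.

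None of the 32 genes passed the test across all genes, while most fold changes were slightly positive. In edgeR's quasi-likelihood test on 14767 genes, 0 of 32 had a Benjamini-Hochberg adjusted p under 0.05, where 0.0609% of all genes were called (0.0271% higher and 0.0339% lower). Limma-voom also called none of the 32. All 32 passed the filter on low counts. A positive log2 fold change was found for 24 of 32, against 51.7% of all genes tested, and the median was 0.19 against 0.01. At an unadjusted p under 0.05, 5 were higher (Idh3a, Suclg1, Pdhb, Mpc1 and Mpc2) and 2 lower (Got2 and Pdp1), against 2.87% and 7.60% of all genes. In 13 of the 32 (40.6%), every knockout library lay above every control, against a background of 7.63%. In Got2 and Pdp1 every knockout library lay below every control, against a background of 10.8%. The summed share of counts was 2.14%, 2.22% and 2.15% in controls and 2.17%, 2.45% and 2.34% in knockouts.

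The median log2 deviation of the 32 genes from the control mean was 0.12, 0.20 and 0.26 in knockout libraries 1 to 3. In knockout library 2, 24 of the 32 genes exceeded every control and 3 (Got1, Got2 and Pdp1) lay below every control, where 28.8% and 30.0% of all genes did so. In knockout library 3, 22 lay above (29.2% of all genes) and 5 below (30.8%), the latter being Got1, Got2, Pcx, Pdk4 and Pdp1. In knockout library 1, 18 lay above (34.3%) and 10 below (35.5%). Without that library 26 of 32 fold changes were positive, the median was 0.21, and 20 genes lay above and 3 below every control, against 15.1% and 18.9% of all genes. Got2 was then called lower, and it was the only one of the 32 to be called, with 5.35% of all genes called lower. DESeq2's Wald test on all libraries called Pdhb and Suclg1 higher and Got2 lower, where it called 0.21% of all genes higher and 1.87% lower.

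**Figure D1:**
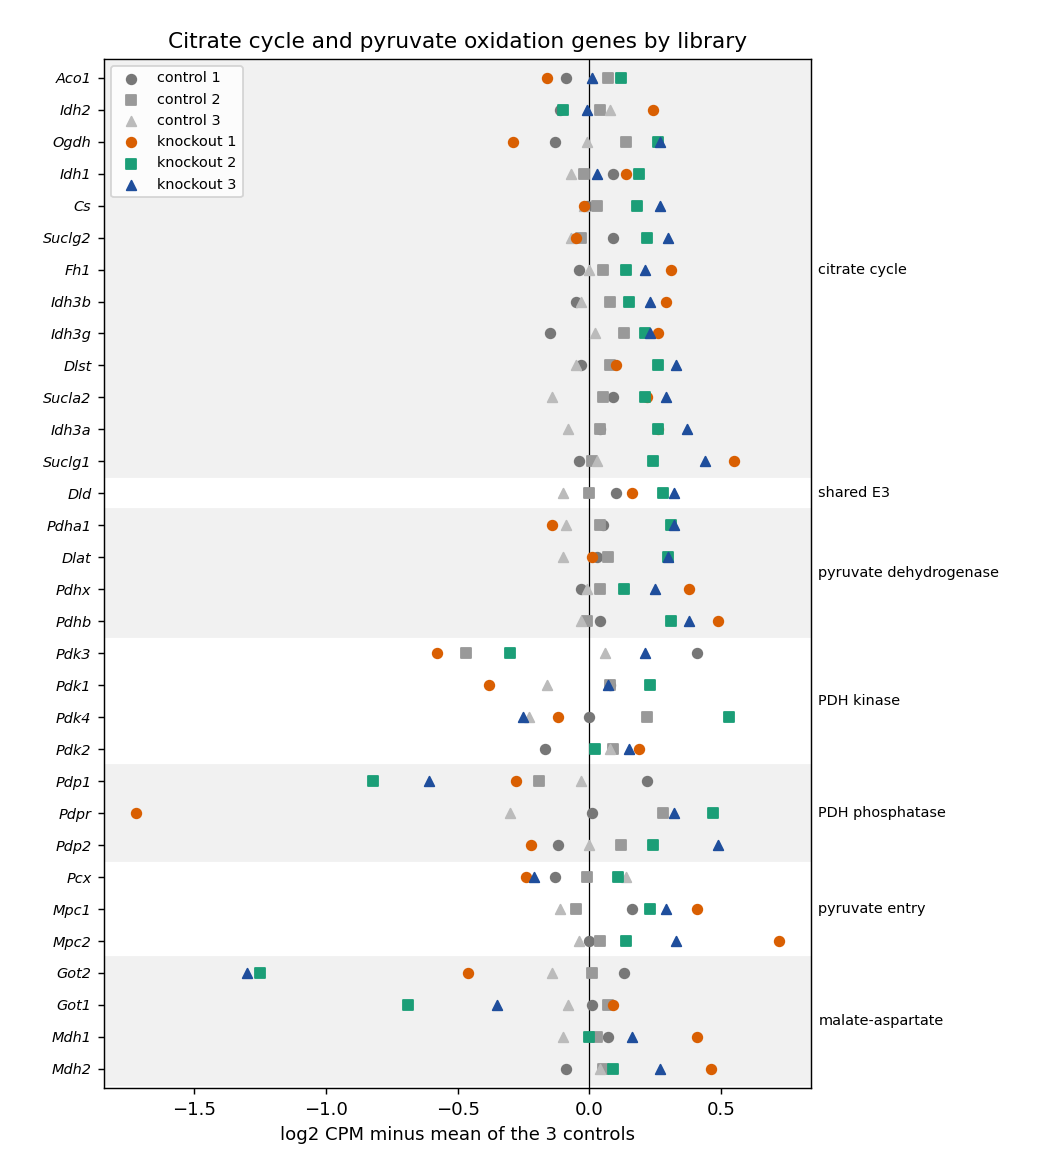
Log2 CPM of each of the 32 genes minus the mean of the 3 controls (x axis), with genes in rows grouped by role and 1 point per library. Knockout libraries 2 and 3 lie to the right of the controls for most enzymes of the cycle and of pyruvate dehydrogenase, Got2 and Pdp1 lie to the left in all knockouts, and knockout library 1 lies far to the left for Pdpr.

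Because the deleted enzyme makes cyclic AMP, promoter windows were searched for the cyclic AMP response element TGACGTCA, whose letters read the same on both strands. RefSeq windows on GRCm38.p6, from 250 bases before to 50 after each transcript start, were found for 30 of the 32 genes. The element was present for 3 of the 30 (10%) and for 2.03% of all 27025 genes with a window. The 30 bases around each are shown 5′ to 3′ on the plus strand, with the element in capitals.
Mdh2, chr5:135778511-135778540: ggagagaatcgTGACGTCAggcctcgctcg
Ogdh, chr11:6291535-6291564: acccaattctgTGACGTCAcgtcacgccca
Pdpr, chr8:111094586-111094615: gtccgccgcggTGACGTCAcggcgcgtcgg
Counted from RefSeq starts, the element began 127 bases before that of Mdh2, 51 before the nearest of Ogdh and 148 before that of Pdpr. GENCODE places the gene starts at 135778480 (Mdh2), 6291633 (Ogdh) and 111094630 (Pdpr), so the distances depend on the annotation. The Mdh2 element lies past that gene's GENCODE start. These genes had log2 fold changes of 0.28 (Mdh2), 0.10 (Ogdh) and -0.05 (Pdpr), none past the threshold, 2 being positive and 1 negative. A pair of AGGTCA repeats spaced by any 1 base (bound by PPAR receptors), TCAAGGTCA (bound by estrogen-related receptors) and the NRF1 palindrome were searched on both strands. They were in 0 of the 30 genes' windows and in 0.0481%, 0.466% and 1.07% of all genes. A match in letters is a description of the window and not of binding. The windows of these genes were rich in G and C, with a median of 61.5% against 52.7% over all windows. They held a median of 21 CG pairs against 7, and TGACGTCA itself holds a CG pair. Whether base composition accounts for the share with the element was not tested.

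Among the subunits of pyruvate dehydrogenase, all 4 particular to the complex had positive fold changes and 2 separated the genotypes. Pdhb, on chromosome 14 (8165996 to 8173025, minus strand, GRCm38), encodes the beta subunit of the decarboxylase and stood at 959, 927 and 910 CPM in controls and at 1313, 1155 and 1213 CPM in knockouts. Every knockout exceeded every control, at 1.32 times the control mean. The log2 fold change of Pdhb was 0.40 ± 0.11 (SE; edgeR adjusted p = 0.267), and it passed in DESeq2 (adjusted p = 0.0234). Pdhx, which tethers the shared dihydrolipoyl dehydrogenase to the core, stood at 145, 152 and 147 CPM in controls and 192, 162 and 176 CPM in knockouts, again with no overlap (0.26 ± 0.12, SE; edgeR adjusted p = 0.502). Pdha1, the alpha subunit that the kinases phosphorylate, stood at 1811, 1807 and 1650 CPM in controls and at 1589, 2182 and 2183 CPM in knockouts. Knockout library 1 was the lowest of all 6 and the other knockouts were the highest. Dlat, the acetyltransferase of the core, was within the controls in knockout library 1 and above them in the other knockouts, at 686, 709 and 629 CPM in controls and 680, 828 and 831 CPM in knockouts. Without knockout library 1 the log2 fold changes were 0.31 ± 0.09 for Pdha1 and 0.30 ± 0.10 for Dlat (SE; edgeR adjusted p = 0.107 and 0.177). Dld, the dihydrolipoyl dehydrogenase that pyruvate and oxoglutarate dehydrogenase share, stood at 879, 825 and 766 CPM in controls and 921, 999 and 1030 CPM in knockouts. Its groups did not overlap and its log2 fold change was 0.26 ± 0.12 (SE; edgeR adjusted p = 0.494).

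Both subunits of the mitochondrial pyruvate carrier were above the controls in every knockout library. Mpc1 stood at 845, 730 and 698 CPM in controls and 1003, 884 and 920 CPM in knockouts (log2 fold change 0.30 ± 0.12, SE; edgeR adjusted p = 0.450). Mpc2 stood at 448, 461 and 434 CPM in controls and 739, 494 and 561 CPM in knockouts (0.42 ± 0.16, SE; edgeR adjusted p = 0.433). The Mpc2 value of knockout library 1 was far above the other 5, and without it the log2 fold change was 0.24 ± 0.11 (SE; edgeR adjusted p = 0.318). Pcx, pyruvate carboxylase, stood at 602, 656 and 726 CPM in controls and 558, 711 and 570 CPM in knockouts. Its groups overlapped, with a log2 fold change of -0.11 ± 0.14 (SE).

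The kinases that inactivate pyruvate dehydrogenase did not separate the genotypes. Pdk4, the isoform induced by fasting and fatty acids, stood at 2314, 2699 and 1974 CPM in controls and 2124, 3336 and 1949 CPM in knockouts. Its spread was wide in both groups, with an SD of 15.6% of the mean in controls and of 30.6% in knockouts (n = 3 each), and its log2 fold change was 0.08 ± 0.22 (SE; edgeR adjusted p = 0.935). Pdk2 stood at 292, 351 and 347 CPM in controls and 376, 332 and 365 CPM in knockouts. Pdk1 stood at 173, 172 and 146 CPM in controls and 125, 192 and 172 CPM in knockouts. Pdk3 was close to absent, between 0.948 and 2.00 CPM in all 6 libraries, on 14 to 34 counts. Per transcript length, Pdk4 made up 78.7% ± 2.71 of the 4 kinases in controls, against 77.9% ± 5.15 in knockouts (SD, n = 3 each). The ratio of Pdk4 to the other 3 overlapped between the groups (exact two-sided permutation p = 0.9, 0.9 after adjustment over 8 ratios).

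Of the phosphatase genes, which act against the kinases, Pdp1 was lower in every knockout. Pdp1, the calcium-stimulated catalytic isoform, stood at 11.8, 8.89 and 9.92 CPM in controls and 8.33, 5.67 and 6.59 CPM in knockouts. The groups did not overlap, on 87 to 201 counts a library. Its log2 fold change was -0.57 ± 0.20 (SE; edgeR adjusted p = 0.380), and -0.73 ± 0.19 without knockout library 1 (SE; edgeR adjusted p = 0.0615). Pdp2, the more abundant isoform, stood at 81.7, 96.2 and 89.0 CPM in controls and 76.0, 105 and 125 CPM in knockouts. Pdpr, the regulatory subunit, stood at 64.1, 77.4 and 51.7 CPM in controls and 19.2, 88.1 and 79.4 CPM in knockouts. Knockout library 1 decided the sign for Pdpr, whose log2 fold change was -0.05 ± 0.47 with it and 0.38 ± 0.16 without it (SE; edgeR adjusted p = 0.982 and 0.260). The ratio of Pdp1 to Pdp2 per length was 0.158 ± 0.036 in controls, against 0.0978 ± 0.0439 in knockouts (SD, n = 3 each). The groups overlapped (exact two-sided permutation p = 0.2, 0.8 after adjustment over 8 ratios, where 3 against 3 cannot go below 0.1).

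**Figure D2:**
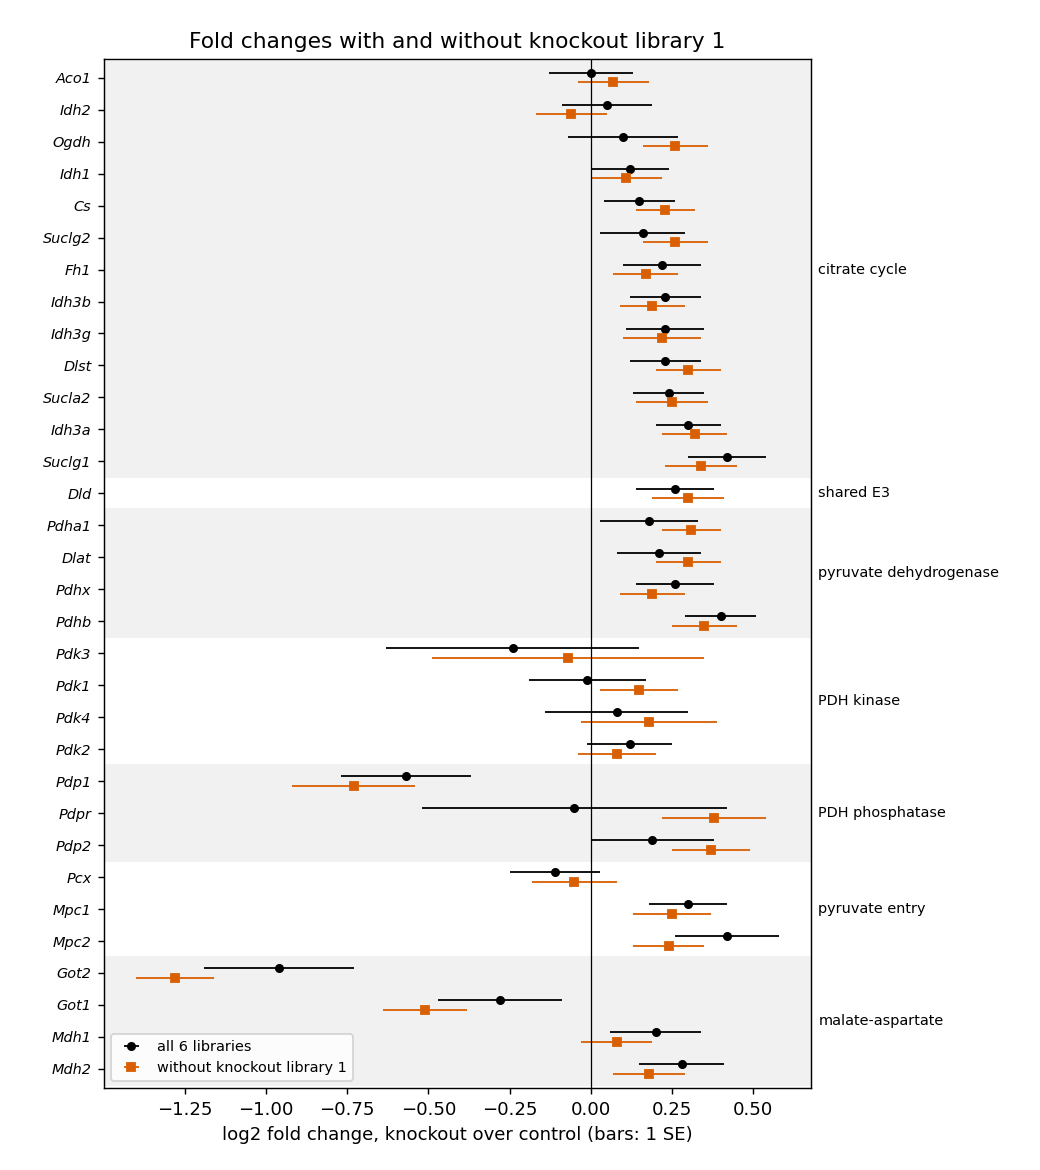
Log2 fold change of knockout over control for each gene (x axis, bars 1 SE), from edgeR on all 6 libraries (black circles) and without knockout library 1 (orange squares). Got2 lies lowest in both fits, at -0.96 and -1.28, and Pdpr moves from -0.05 to 0.38.

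Of the 13 genes grouped as citrate cycle enzymes, 12 had a fold change above 0 (51.7% of all genes), with a median of 0.22. With the muscle marker score as covariate 9 did (49.5% of all genes). The 13 include the cytosolic Aco1 and Idh1 and the NADP-linked Idh2, while Mdh2 is counted with the malate-aspartate enzymes. Every knockout lay above every control for 7 of the 13, against 7.63% of all genes, and none passed edgeR's test. The largest difference was in Suclg1, the alpha subunit common to both succinyl-CoA ligases (chromosome 6, 73248382 to 73276911, plus strand). It stood at 693, 717 and 725 CPM in controls and 1044, 840 and 963 CPM in knockouts, at 1.33 times the control mean. Its log2 fold change was 0.42 ± 0.12 (SE; edgeR adjusted p = 0.293), and DESeq2 called it (adjusted p = 0.0399). Sucla2, the beta subunit of the ATP-forming ligase, stood at 1052, 1017 and 893 CPM in controls and 1150, 1137 and 1207 CPM in knockouts. Suclg2, that of the GTP-forming ligase, was much scarcer and overlapped, at 116 to 129 CPM in controls and 117 to 149 CPM in knockouts.

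The 3 subunits of the NAD-linked isocitrate dehydrogenase, a rate-controlling step of the cycle, all stood above the controls without passing the test. Idh3a, the catalytic subunit, stood at 1279, 1283 and 1182 CPM in controls and 1496, 1492 and 1617 CPM in knockouts (log2 fold change 0.30 ± 0.10, SE; edgeR adjusted p = 0.377). Idh3b stood at 795, 874 and 811 CPM in controls and 1013, 920 and 969 CPM in knockouts. Idh3g stood at 597, 726 and 672 CPM in controls and 795, 765 and 780 CPM in knockouts. None of the 3 overlapped between genotypes, and the regulatory pair had a log2 fold change of 0.23 each. The groups overlapped for both NADP-linked enzymes, and their difference from the NAD-linked subunits was not tested. Idh1, in the cytosol, ranged from 168 to 189 CPM in controls and 182 to 202 CPM in knockouts, and Idh2, in mitochondria, from 169 to 193 and 170 to 215 CPM.

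Of the remaining enzymes, Dlst, the succinyltransferase of oxoglutarate dehydrogenase, stood at 1011, 1089 and 995 CPM in controls and 1106, 1235 and 1296 CPM in knockouts (0.23 ± 0.11, SE; edgeR adjusted p = 0.532). Fh1, fumarase, stood at 361, 384 and 371 CPM in controls and 460, 409 and 429 CPM in knockouts, also with no overlap (0.22 ± 0.12, SE; edgeR adjusted p = 0.563). Cs, citrate synthase, and Ogdh, which decarboxylates oxoglutarate, were above every control in knockout libraries 2 and 3 only. Cs stood at 1460, 1508 and 1448 CPM in controls and 1449, 1670 and 1774 CPM in knockouts. Ogdh stood at 2003, 2421 and 2190 CPM in controls and 1792, 2632 and 2658 CPM in knockouts. Aco1, the cytosolic aconitase that also acts as an iron-regulatory protein, had a mean of 158 CPM in both groups, with an SD of 9.02 in controls and 15.3 in knockouts (n = 3 each).

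Of the 4 malate-aspartate enzymes, both dehydrogenases had positive and both aminotransferases negative fold changes, none past the threshold, and the groups overlapped for Mdh1 and Got1. Mdh2, mitochondrial malate dehydrogenase, stood at 760, 832 and 828 CPM in controls and 1110, 857 and 969 CPM in knockouts (0.28 ± 0.13, SE; edgeR adjusted p = 0.512). Mdh1, its cytosolic counterpart, stood at 671, 655 and 596 CPM in controls and 848, 641 and 715 CPM in knockouts, with overlap. Got2, mitochondrial aspartate aminotransferase (chromosome 8, 95864134 to 95888547, minus strand), stood at 117, 107 and 97.1 CPM in controls and 77.3, 44.8 and 43.2 CPM in knockouts. All knockouts lay below all controls, at 0.515 times the control mean. Its log2 fold change was -0.96 ± 0.23 over all libraries (SE; edgeR adjusted p = 0.205) and -1.28 ± 0.12 without knockout library 1 (SE; edgeR adjusted p = 9.23e-05). Across 17 alternatives its adjusted p ranged from 1.53e-06 to 0.621 and its direction held in each. Its listed pseudogene, Got2-ps1, had 0 counts in every library. Got1, the cytosolic isoform, stood at 105, 110 and 98.5 CPM in controls and 111, 64.9 and 82.1 CPM in knockouts (-0.28 ± 0.19, SE; edgeR adjusted p = 0.659). Without knockout library 1 it was at -0.51 ± 0.13 (SE; edgeR adjusted p = 0.0502). The ratio of Got2 to Got1 per length was 0.904, 0.793 and 0.802 in controls and 0.565, 0.561 and 0.428 in knockouts, the only 1 of 8 paralog ratios without overlap (exact two-sided permutation p = 0.1, the smallest possible, and 0.8 after adjustment over 8).

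Got2, Slc25a12, Gpt2 and the summed muscle markers were each below every control in all 3 knockouts, and among the knockouts each was highest in library 1. The same held for Pdp1 and for Slc25a10, at 41.6, 39.7 and 61.8 CPM in controls and 37.6, 36.9 and 25.5 CPM in knockouts. Of all genes, 10.8% lay below every control in all knockouts. How many of those were also highest in library 1 among the knockouts was not counted. Slc25a12, the aspartate-glutamate carrier of the same shuttle, stood at 55.3, 45.9 and 41.7 CPM in controls and 24.6, 4.17 and 1.72 CPM in knockouts (-2.24 ± 0.78, SE; edgeR adjusted p = 0.376). Gpt2, mitochondrial alanine aminotransferase, which links pyruvate and oxoglutarate, stood at 45.3, 38.9 and 36.2 CPM in controls and 20.9, 18 and 14.6 CPM in knockouts (-1.17 ± 0.17, SE; edgeR adjusted p = 0.0741). Without knockout library 1 both were called lower (edgeR adjusted p = 2.9e-05 for Slc25a12 and 0.00049 for Gpt2). They were the 2 called lower in that fit among 35 neighbouring entries of the pathway (described below), where 5.35% of all genes were called lower. When the muscle marker score entered the fit as a covariate, the log2 fold change was -0.46 ± 0.20 for Got2, -0.57 ± 0.24 for Slc25a12 and -0.85 ± 0.22 for Gpt2 (SE; edgeR adjusted p = 0.346, 0.338 and 0.276). In that fit 19 of the 32 genes had a positive fold change, against 49.5% of all genes, and the median was 0.15. Cs, Ogdh, Pdha1, Suclg2 and Pdp2 turned negative there without passing, and Pdpr was at -1.49 ± 0.50 (SE; edgeR adjusted p = 0.280). Got1 was at -0.00 ± 0.23 and Pdp1 at -0.35 ± 0.28 in the same fit (SE; edgeR adjusted p = 0.995 and 0.593). The part of muscle RNA in these differences was not tested beyond that fit.

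**Figure D3:**
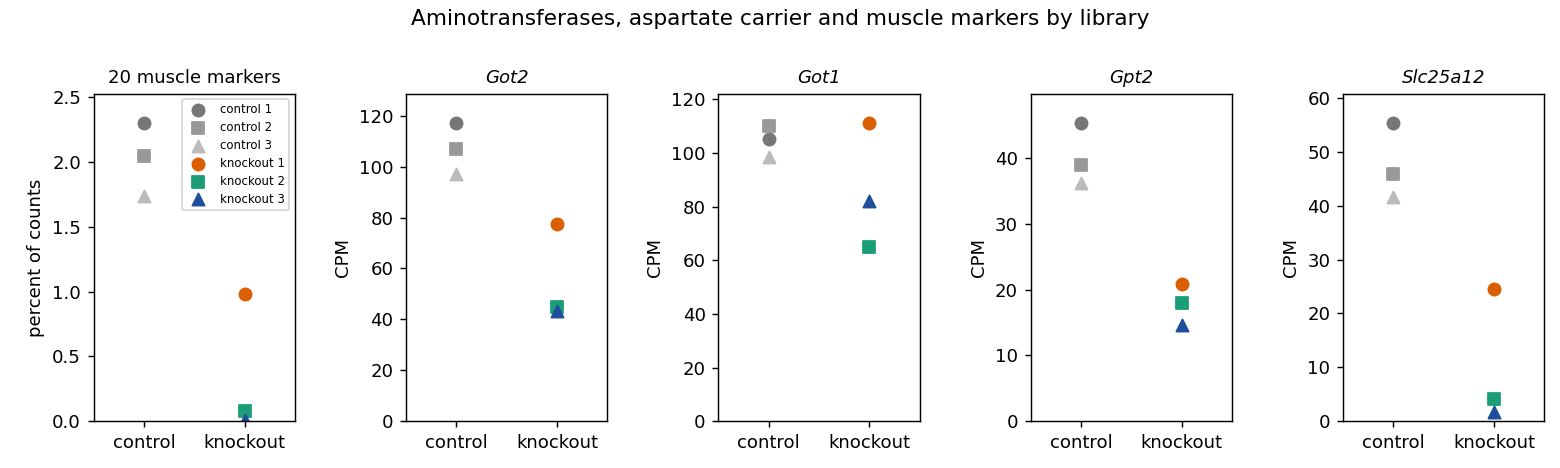
Summed percent of counts of the 20 skeletal muscle markers (left panel) and CPM of Got2, Got1, Gpt2 and Slc25a12 (other panels) in each library, with controls at left and knockouts at right and y axes from 0. Got2, Gpt2 and Slc25a12 lie below the controls in all 3 knockouts, while Got1 of knockout library 1, at 111 CPM, lies above them.

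Levels were compared between genes per kilobase of the longest protein-coding transcript. In controls Mpc1 was the highest, with a mean of 789 CPM per kb, followed by Pdk4 at 668, Pdha1 at 617 and Pdhb at 616. Pdk4 ranged from 567 to 775 CPM per kb over the controls, which spans the levels of both Pdha1 and Pdhb and reaches that of the lowest Mpc1 control (726), so these neighbours do not differ beyond their spread. Mdh2 followed at 554 CPM per kb, and then Ogdh, Idh3b, Cs, Idh3g and Idh3a between 484 and 534 CPM per kb. At the bottom were Pdp1 at 2.43 and Pdk3 at 0.721 CPM per kb. The summed kinases exceeded the summed Pdp1 and Pdp2 by 46.9 ± 4.68 times in controls, against 47.4 ± 13.4 times in knockouts (SD, n = 3 each). With the median transcript length in place of the longest, Mdh2 (1245 CPM per kb) and Pdk4 (1148) led, so the order of the top genes depends on the transcript model. The mean ratio of summed kinases to summed Pdp1 and Pdp2 in controls was then 67.5, so it depends on the model too.

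**Figure D4:**
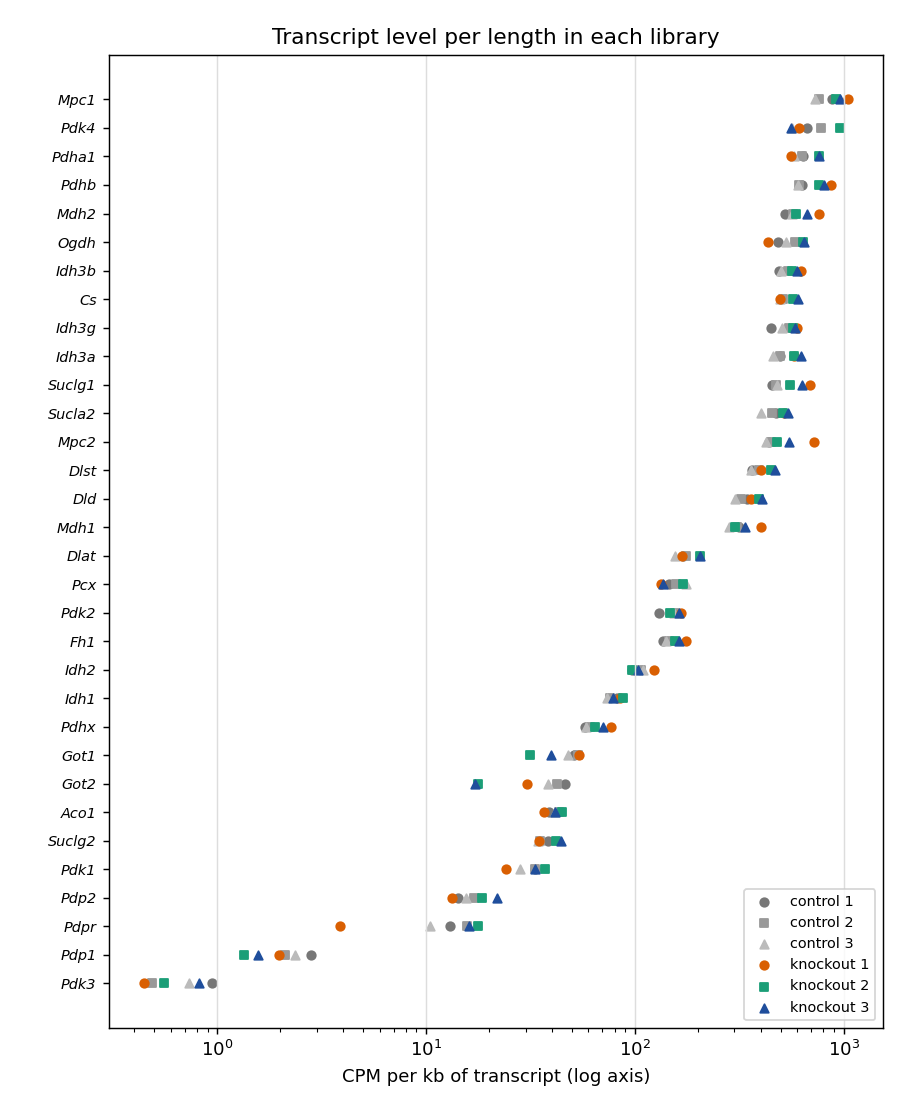
CPM per kilobase of transcript (x axis, log scale) for the 32 genes in each library, ordered by the mean of the controls. Mpc1 is at the top and Pdk3 at the bottom, and the spread between libraries is narrow against the range between genes.

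Ratios between subunits that assemble together, chosen after the levels were seen, ranged from well below 1 to above it per transcript length. In controls the ratio of Pdha1 to Pdhb was 1.00, 1.04 and 0.963, and that of Idh3g to Idh3b was 0.976 ± 0.0557 (SD, n = 3). Suclg1 to the sum of its alternative partners Sucla2 and Suclg2 was 0.984 ± 0.104 (SD, n = 3). Within that pair Sucla2 exceeded Suclg2 by 12.3 ± 0.639 times in controls, against 13.1 ± 1.53 times in knockouts (SD, n = 3 each). The core acetyltransferase Dlat was at 0.271 ± 0.0141 times Pdhb in controls, and Pdhx at 0.354 ± 0.0196 times Dlat (SD, n = 3). Mpc2 was at 0.557 ± 0.0522 times Mpc1 and Ogdh at 1.43 ± 0.0897 times Dlst (SD, n = 3). In knockouts these ratios overlapped with controls. Knockout library 1 departed most for Pdha1 to Pdhb, at 0.643 against 1.00 and 0.956 in the other knockouts.

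The departure of knockout library 1 followed transcript length among the 32 genes. Spearman's rho between log2 deviation from the control mean and length was -0.77 over the 32 genes in that library, and 0.28 and -0.08 in knockout libraries 2 and 3, as a description of genes that share a library. The 16 shorter transcripts, under the median length of 2537 bases, had a median deviation of 0.28 in knockout library 1, and the 16 longer ones -0.13. In knockout library 2 these medians were 0.14 and 0.25, and in library 3 they were 0.23 and 0.29. Pdpr, at 4938 bases, lay -1.72 from the control mean in knockout library 1 on the log2 scale, and Mpc2, at 1025 bases, lay 0.72 above it. With each library's length trend removed, an alternative added after the data were seen, 25 of 32 fold changes were positive (51.2% of all genes) and the median was 0.14. The groups then did not overlap in 7 genes above and 2 below, against 8.33% and 11.5% of all genes, compared with 13 and 2 before.

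**Figure D5:**
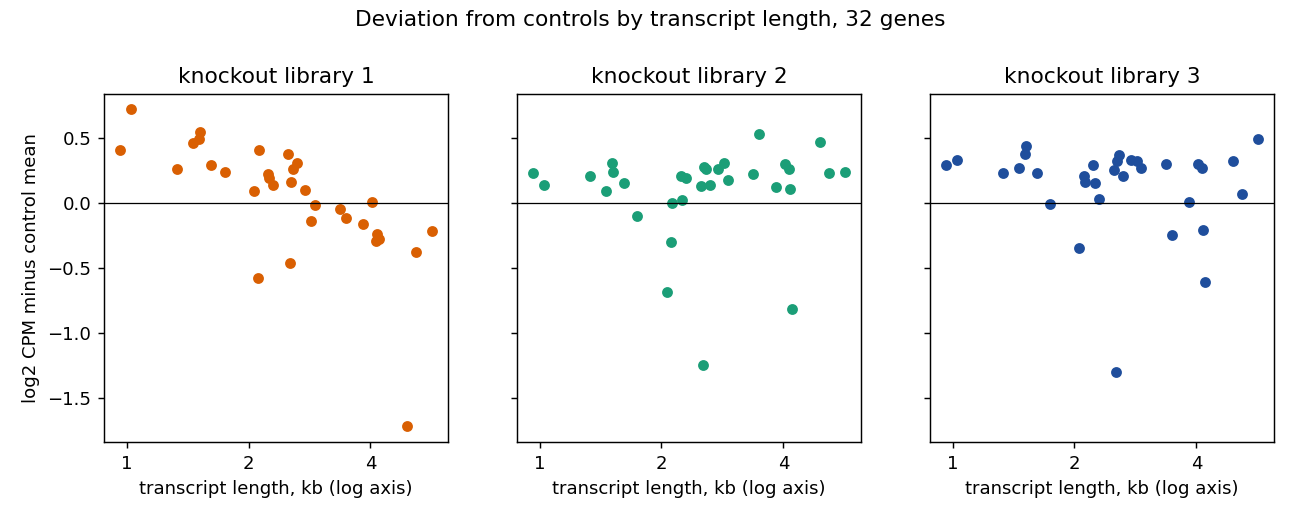
Log2 CPM minus the control mean (y axis) against the length of the longest protein-coding transcript (x axis, log scale) for the 32 genes, in 1 panel per knockout library. Points slope downward in knockout library 1, where Pdpr lies lowest at -1.72, and show no such slope in libraries 2 and 3.

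A list of 34 neighbouring genes of the pathway, of which Nnt has 2 entries, gave 35 tested entries. None was called by edgeR over all genes, and 1 was called lower by DESeq2. At an unadjusted p under 0.05, 4 were higher and 4 lower, against 2.87% and 7.60% of all genes. Fold changes were positive for 24 and negative for 11 (median 0.17), where 51.7% of all genes were positive. The 4 entries furthest from 0, both of Nnt, Slc25a12 and Gpt2, were negative. The 2 Nnt entries cover the same locus, at -2.78 ± 1.08 and -0.89 ± 1.37 (SE), and the groups of the second overlapped. In controls the first stood at 4.27, 3.45 and 13.2 CPM and the second at 12.7, 8.79 and 0 CPM. In knockouts they stood at 0.134, 0 and 2.77 CPM and at 9.27, 2.54 and 0 CPM. Counts of the locus are divided between the 2 entries, so neither alone measures the gene. Each entry of Nnt had 0 counts in at least 1 library. The groups did not overlap in 12 above and 4 below the controls, against 7.63% and 10.8% of all genes. Sdhb, the iron-sulfur subunit of succinate dehydrogenase, stood at 577, 595 and 560 CPM in controls and 853, 632 and 737 CPM in knockouts (0.36 ± 0.14, SE; edgeR adjusted p = 0.425). Lipt2 acts in making the lipoyl cofactor used by Dlat and Dlst. It stood at 3.46, 3.41 and 2.61 CPM in controls and 4.54, 5.16 and 4.51 CPM in knockouts (0.57 ± 0.22, SE; edgeR adjusted p = 0.425). Sdhb and Lipt2 were the entries with the smallest p after Gpt2 and Slc25a12.

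Of 18 regulators known to act on these genes, none was called by edgeR or DESeq2, none had an unadjusted p under 0.05, and 13 were positive (median 0.07). By smallest p they were Foxo3 (-0.43 ± 0.22), Pparg (0.27 ± 0.14), Sirt3 (0.22 ± 0.12) and Esrra (0.33 ± 0.18), as log2 fold change with SE, and with edgeR adjusted p from 0.539 to 0.571. Sirt3, the mitochondrial deacetylase, stood at 48.7, 55.4 and 57.8 CPM in controls and 66.5, 59.7 and 62.4 CPM in knockouts, without overlap. Foxo3, a forkhead factor, stood at 13.9, 15.9 and 14.5 CPM in controls and 7.5, 13.4 and 11.9 CPM in knockouts, also without overlap. These were 1 of 18 above and 1 of 18 below, against 7.63% and 10.8% of all genes. Esrra, a nuclear receptor of oxidative genes, was at 301 CPM in knockout library 1 and between 167 and 224 CPM in the other 5. Ppargc1a, a coactivator induced by cold, stood at 43.5, 94.8 and 36.6 CPM in controls and 42.0, 101 and 67.9 CPM in knockouts, a spread within each group that exceeds the difference between them.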

How the data were processed

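The authors deposited estimated counts for each gene, which are not all whole numbers and sum to a different total in each library. The submitters' processing notes name StringTie, Salmon, edgeR and GRCm38. Their roles, their versions and the use of strand in counting: not given in the sources used here. Columns were matched to samples by the name in each sample's description. Symbols, positions and transcript lengths came from GENCODE M21 (54131 of 54385 identifiers matched).

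Counts were rounded, filtered with filterByExpr (minimum count 10, minimum total 15) and tested with the quasi-likelihood test of edgeR 4.0.16 (R 4.3.3, TMM scaling, no covariate), with a Benjamini-Hochberg adjusted p under 0.05 over all 14767 genes. CPM are per 1000000 of TMM-scaled library size, and 3 counts correspond to 0.172 to 0.203 CPM. Log2 values per library use a prior count of 2. The edgeR test was run on simulated counts with larger fold changes than those of most genes described here and with no divergent library. That run does not show how the test performs for the small differences given here. Ratios used exact permutation tests. No 2 libraries agreed within sampling noise (chi-square per degree of freedom at least 11.9).

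The genes, lists and naming rule were chosen with earlier results of these data known. All 32 genes were named, with values per library for those whose groups do not overlap or with the 4 smallest p. The 4 neighbours and 4 regulators with the smallest p were named. Ppargc1a and the values per library of further genes were added after they were seen. Alternatives were DESeq2 1.42.0, RLE or upper-quartile factors, limma 3.58.1 (voom), a robust fit, other filters, the replicate block, each library left out, the muscle marker score as covariate, abundant genes out of scaling, an adjusted p under 0.1, and removal of length trends (loess span 0.3, limma). Numbered replicates are not paired by the labels.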

Additional observations from a re-analysis of the deposited data

How the results depend on the processing

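The median log2 fold change of the 32 genes stayed positive in all 17 alternatives, between 0.12 and 0.21. The number of the 32 called was 0 except for 3 with DESeq2 (Pdhb, Suclg1 and Got2), 1 with no low-count filter and 1 without knockout library 1 (Got2 each time). Leaving out single libraries gave 0 to 1. The number whose groups do not overlap was 15, and ran from 14 to 23 with single libraries left out and was 9 with length trends removed. Over all genes 9 were called, against 307 with DESeq2, 33 with limma-voom, 46 with the robust fit, 893 with no low-count filter, 18 with the muscle marker score as covariate, 46 at an adjusted p under 0.1 and 4 to 857 with single libraries left out, the highest without knockout library 1. The causes were not tested. With the replicate block 4 genes and 0 of the 32 were called. Deviations of same-numbered libraries correlated at 0.07, 0.11 and 0.05 across genes, each the highest for its number, which is a hint from the data and not from the design. Of 544 values of single genes, 539 kept their side of the threshold and 5 newly passed it, and 22 of the 32 genes kept their sign in every alternative. All 64 alternative values of the 8 ratios stayed within the spread between replicates, an outcome nearly fixed in advance. Leaving out a single library cannot move a difference that far, and a change of length cancels for ratios of single genes. Without counts per transcript, levels per length depend on the model chosen: Pdk4 was at 1148, Idh1 at 235, Mdh2 at 1245 and Mpc1 at 995 CPM per kb with the median length.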
